A study of Homo sapiens with 8 samples.

Results

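FOXQ1 was knocked down in PANC-1 cells with 2 siRNAs, si-FOXQ1-1 and si-FOXQ1-2, and the genes that moved away from mock cells in the same direction under both are described here. PANC-1 is a human cell line from a carcinoma of the pancreatic duct. Each siRNA has 1 2-colour array (Agilent, 60-mer probes), so 2 of the 8 samples of the series were taken, as 2 replicates of the knockdown. RNA of siRNA-transfected cells carried Cy5 and RNA of mock PANC-1 cells carried Cy3 on both arrays. The other 6 samples of the same slide are miRNA transfections, 4 in PC3 cells (miR-100-3p, miR-99a-3p and both strands of miR-150) and 2 in FaDu cells (miR-99a-3p and miR-99a-5p), each against mock cells of its own line. They appear below only where the same genes are compared. The labels describe the mock cells as not transfected, no array with a control siRNA was analysed here, and the dyes were not swapped, so knockdown, transfection and dye cannot be told apart from the PANC-1 arrays alone. Dose, time after transfection and whether both arrays share 1 mock culture are not given in the sources used here. The p-values therefore measure only the spread between these 2 arrays, which differ in their siRNA as well.

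FOXQ1 is a transcription factor of the forkhead family, whose members bind DNA through a winged-helix domain and share a TGTTTA-like core motif. In carcinoma cells it is known for links to epithelial-mesenchymal transition, in which cells lose epithelial junction proteins and take up mesenchymal ones, and to Wnt signalling. In pancreatic cancer it has also been linked to the enzymes of glycolysis.

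Each array held 60901 gene spots, of which 45.9% were well above background in Cy3 on both arrays, against 39.0% and 39.4% in Cy5, and none was saturated. The brightest probe stood for each gene, and 15866 of 43317 genes were well above background in both channels of both arrays. These are the genes measured here, and 11646 of them were found in the RefSeq table as protein-coding. Values are log2 ratios of siRNA over mock, as the scanner software gave them after its own background and dye correction. The ratios had a median of -0.00 and 0.01 and an SD over genes of 0.32 under si-FOXQ1-1 and 0.28 under si-FOXQ1-2. The scanner error of a spot had a median of 0.21 on both arrays. After scaling between arrays, the mock channels of the 2 arrays differed with an SD of 0.15 (log2) over genes and the siRNA channels with an SD of 0.34. Fewer cells of a kind and less RNA per cell cannot be told apart in such bulk RNA, and precision is limited by having 1 array per siRNA.

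The labelled cell type was compared with marker genes. Of 14 duct markers, 9 were above background in both mock channels, among them the keratins KRT7, KRT8, KRT18 and KRT19 and the factor SOX9, while CFTR was not. Of 15 acinar markers on the array only CEL, a lipase, was above background, and the hormones INS, GCG and SST were not. The markers of fibroblasts (5 of 14), leukocytes and endothelium (3 of 12), squamous cells (4 of 17) and endocrine cells (5 of 16) that were above background included COL1A1, PTPRC, SFN and CHGB. KRT5, KRT14 and TP63, which define squamous cells, were not above background.

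The targeted gene was read first. FOXQ1, measured by 1 probe (hg19, chr6:1314629-1314688), had signals of 4887 and 4557 in the mock channels and 1092 and 1046 in the siRNA channels. Its log2 ratio was -2.16 ± 0.29 (scanner error) with si-FOXQ1-1 and -2.12 ± 0.28 with si-FOXQ1-2. Both siRNAs thus left a similar level of the mRNA, 4.41-fold below mock on the mean (log2 ratio -2.14 ± 0.03, SD, n = 2). The limma fit over the 15866 genes gave FOXQ1 an unadjusted p of 2.00e-05 and an adjusted p of 0.318. With background correction by normexp and loess the limma adjusted p was 0.00385, and with an intensity trend and robust variance it was 0.0092. On the other 6 arrays the FOXQ1 log2 ratio lay between -1.29 (PC3 with miR-150-3p) and 0.89 (PC3 with miR-99a-3p), above both PANC-1 values. Among 35 forkhead genes 19 were measured, and 8 (42.1%) lay below 0 and 5 (26.3%) above 0 on both arrays, against 31.2% below and 32% above of all genes measured. FOXS1, another forkhead factor, was the next lowest of them, with log2 ratios of -1.69 and -0.81 (chosen after its values were seen).

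In the limma test, 0 genes passed an adjusted p of 0.05 and 0 passed 0.1, and 2047 had an unadjusted p below 0.05, 1033 of them higher (6.51%) and 1014 lower (6.39%) than mock. With the intensity trend, or with normexp and loess, 1 gene passed, FOXQ1. The same-direction genes are therefore described by size, on the log2 scale, on both arrays. A log2 ratio past 1 with the same sign on both arrays was found for 13 genes, which is 0.0819% of the genes measured, 5 of them higher (0.0315%) and 8 lower (0.0504%). All 13 are protein-coding, and 2 further genes were past 1 on both arrays with opposite signs. On its own, the si-FOXQ1-1 array had 158 genes past 1 (98 higher and 60 lower) and the si-FOXQ1-2 array had 91 (29 higher and 62 lower). Just inside the threshold lay IFNLR1 (1.72 and 1.00) and IFIT3, and just outside it KCNS3 (1.15 and 0.99) and ITPR1 (-1.12 and -0.97).

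**Figure D1:**
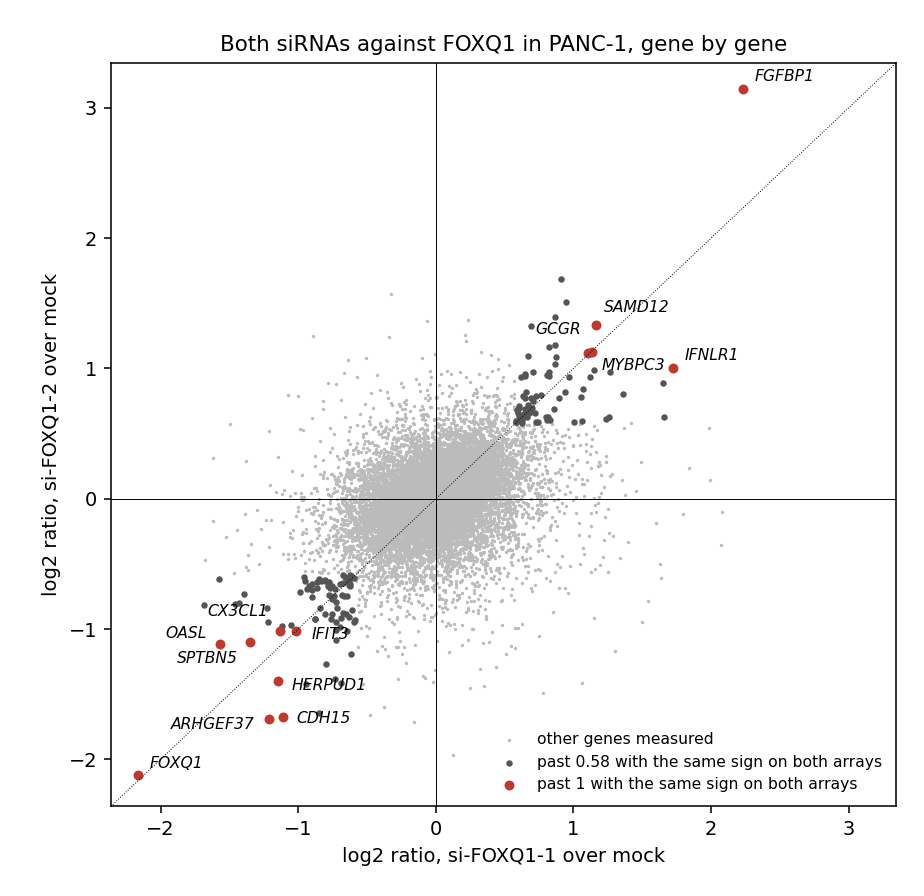
Each point is 1 of the 15866 genes measured, with the log2 ratio of si-FOXQ1-1 over mock on the x axis and of si-FOXQ1-2 over mock on the y axis. The dotted line marks equal ratios, dark points lie past 0.58 and red points past 1 with the same sign on both arrays. FOXQ1 (-2.16 and -2.12) and FGFBP1 (2.23 and 3.15) stand farthest out along the dotted line.

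FGFBP1, a secreted protein that releases fibroblast growth factors from the matrix, had the highest ratio of the genes past 1 on both arrays (probe hg19, chr4:15937332-15937391). Its mock signals were 22.1 and 27.7, and its siRNA signals 104 and 246. The log2 ratios were 2.23 ± 0.36 (scanner error) and 3.15 ± 0.37, with a mean of 2.69 ± 0.65 (SD, n = 2; limma adjusted p = 0.350). The mock channels held FGFBP1 close to the lowest signals called above background, 16.2 and 15.01. With normexp, which adds an offset of 50, its ratios were 0.98 and 1.79. On the other 6 arrays its ratio lay between -0.97 and 1.45.

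The other 4 genes higher than mock had weak mock signals too. IFNLR1, a chain of the receptor for type III interferons, was 1.72 and 1.00, with mock signals of 57.1 and 51.2 and siRNA signals of 188 and 103. GCGR, the glucagon receptor, was 1.14 and 1.13, and MYBPC3, a myosin-binding protein of heart muscle, was 1.11 and 1.12, so the siRNAs differed by less than the scanner error for both. SAMD12 was 1.16 and 1.33. Mock signals of GCGR, MYBPC3 and SAMD12 lay between 22.0 and 30.6, and with normexp and loess the mean log2 ratios were 0.42, 0.37 and 0.50. GCGR was above background in both channels on 0 of the 6 other arrays and MYBPC3 on 1.

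Among the 8 lower genes, 3 had strong signals next to FOXQ1. HERPUD1, a membrane protein of the endoplasmic reticulum (ER) that takes part in the degradation of misfolded proteins, had mock signals of 23851 and 22192 and siRNA signals of 10776 and 8428 (probe hg19, chr16:56977700-56977759). Its log2 ratios were -1.15 ± 0.23 and -1.40 ± 0.24. OASL, an interferon-induced relative of the oligoadenylate synthetases, had mock signals of 4019 and 3873 and log2 ratios of -1.57 ± 0.25 and -1.12 ± 0.23. IFIT3, an interferon-induced protein that binds viral RNA together with its relatives, had mock signals of 1778 and 1677 and ratios of -1.02 on both arrays. FOXQ1 and HERPUD1 were the only ones of the 13 that also lay past 1 on both arrays with normexp and loess. HERPUD1 was below 0 on the other 6 arrays as well, between -3.37 (FaDu with miR-99a-3p) and -0.08, whereas OASL ranged from -1.43 to 1.42 and IFIT3 from -0.93 to 2.68 there.

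The remaining 4 lower genes were weaker spots. CX3CL1, the membrane-bound chemokine fractalkine, was -1.13 and -1.02, with mock signals of 364 and 358. CDH15, the M-cadherin of muscle cells, was -1.11 and -1.67, and ARHGEF37 was -1.21 and -1.69. SPTBN5, a spectrin beta chain, was -1.35 and -1.10 with mock signals of 97.5 and 90.9. CX3CL1 and SPTBN5 were above background in both channels on 0 of the other 6 arrays. The limma adjusted p was 0.350 for each of the 13 genes other than FOXQ1.

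**Figure D2:**
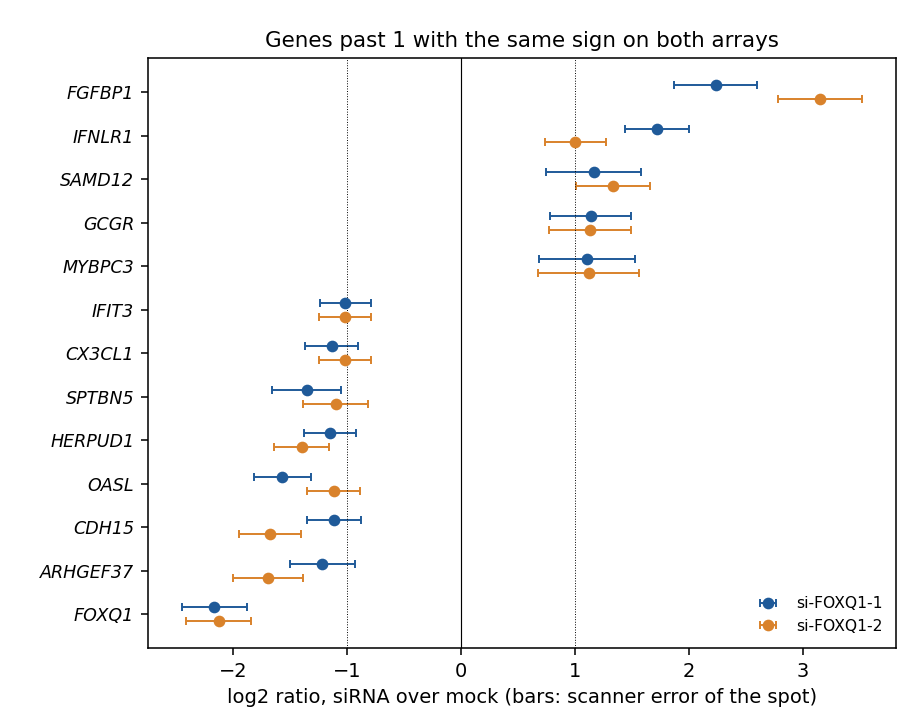
Log2 ratios of siRNA over mock (x axis) for the 13 genes past 1 with the same sign on both arrays, with si-FOXQ1-1 in blue and si-FOXQ1-2 in orange. Bars are the scanner error of each spot, dotted lines mark -1 and 1. Both points of a gene lie on the same side of 0, and FOXQ1, IFIT3, GCGR and MYBPC3 have nearly the same value under both siRNAs.

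At a smaller size, 157 genes (0.99%) had log2 ratios past 0.58 with the same sign on both arrays, 76 higher (0.479%) and 81 lower (0.511%), and 116 of them are protein-coding. The genes named in this paragraph were chosen among these after their values were seen. Matrix proteins of the basement membrane were among the higher ones, namely the collagen IV chains COL4A1 (1.05 and 0.78) and COL4A2 (0.94 and 0.82), which are transcribed from a shared promoter, and nidogen NID1 (0.67 and 1.10). Receptor genes and cytokines among them were IL6R, the receptor chain for interleukin-6 (0.86 and 1.18), IL22RA1, a chain of the interleukin-22 receptor (0.82 and 1.16), and LTB, lymphotoxin beta (0.91 and 1.69). BMF, a BH3-only protein that promotes apoptosis, was 0.87 and 1.39, and HMGA2, an architectural chromatin protein, was 0.72 and 0.66. Among the lower genes, tenascin TNC of the matrix was -0.96 and -0.60 and SERPINA3, a secreted protease inhibitor, -1.57 and -0.61. The matrix genes named here thus lay on both sides of mock.

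Of the gene lists with at least 15 measured members, that of the unfolded protein response and the ATF4 pathway had the largest share of members on 1 side of mock. The unfolded protein response raises chaperones and degradation factors when misfolded proteins collect in the ER, and ATF4 is the factor through which it and amino acid shortage act on amino acid genes. Of 36 genes 35 were measured, and 31 lay below 0 and 0 above 0 on both arrays, against 31.2% below and 32% above of all genes measured. The median log2 ratio of the list was -0.50 with si-FOXQ1-1 and -0.37 with si-FOXQ1-2, beside medians of -0.00 and 0.01 over all genes. None of its members passed the limma adjusted p of 0.05, and 23 of the 35 had an unadjusted p below 0.05 on the lower side, against 6.39% of all genes.

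Members past 0.58 on both arrays were 5, all lower, against 0.511% lower and 0.479% higher of all genes measured. After HERPUD1 came CRELD2, a secreted ER stress protein (-0.73 and -1.08), DDIT3, the stress transcription factor CHOP (-0.66 and -0.88), and the ER chaperones HSP90B1 (-0.77 and -0.69) and HYOU1 (-0.63 and -0.67). HSPA5, the main ER chaperone BiP, was -0.50 and -0.71, and XBP1, a transcription factor of the response, was -0.48 and -0.62. On the amino acid side, ASNS, which makes asparagine, was -0.86 and -0.30, TRIB3, a pseudokinase induced by ATF4, was -0.71 and -0.56, and SLC7A11, the cystine transporter subunit, was -0.72 and -0.33. ATF4 itself was -0.46 and -0.15. The 4 members with opposite signs were SLC7A5, PSAT1, ATF6 and STC2. Outside the list, FICD, an enzyme that modifies BiP (-1.05 and -0.97), and SYVN1, the ubiquitin ligase of ER-associated degradation (-0.59 and -0.93), were also past 0.58 and were picked after their values were seen.

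On the other 6 arrays the median of this list was -1.82 in FaDu cells with miR-99a-3p and between -0.19 and 0.12 on the remaining 5. When the mean ratio of all 6 was taken from each PANC-1 ratio, the list median was -0.07 and 16 members lay below 0 on both arrays. When the FaDu miR-99a-3p array was left out of that mean, the values were -0.37 and 26. The same mean was taken from both PANC-1 ratios of a gene, so the 2 results share a part. These 2 counts therefore cannot be set against the share of all genes given above.

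Promoters of these genes were read for known response elements, since members of the list lay on the same side of mock. RefSeq windows (GRCh38.p14) from 250 bases before to 50 after the gene start were found for 32 of the 35 measured members. The ER stress element, which is CCAAT and CCACG with 9 free bases between them and was searched on both strands, was present in 5 of the 32 (15.6%), in 0.1275% of the 10198 promoters found for genes measured and in 0.0806% of all 27305 promoters. It was in the windows of CALR (log2 ratios of -0.10 and -0.28), CRELD2, HSP90B1, HSPA5 and XBP1. The amino acid response element, spelled TGATGNAA, was in 5 of the 32 (15.6%), namely ASNS, ATF3, CHAC1, HERPUD1 and SLC3A2, in 1.67% of the promoters of genes measured and in 3.67% of all promoters. The list was drawn up from known genes of these pathways. Its shares of both elements were therefore set by the choice of genes and would be the same whatever the ratios. The 6 windows below carry these letters next to the ratios given above, in the direction of the gene, with the fixed bases of the element in capitals. In CRELD2 and HERPUD1 the element lies on the opposite strand and is printed as its reverse complement.
HSPA5 (chr9:125241386-125241414, minus strand): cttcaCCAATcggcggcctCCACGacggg
XBP1 (chr22:28800598-28800626, minus strand): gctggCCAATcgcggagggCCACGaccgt
HSP90B1 (chr12:103930211-103930239, plus strand): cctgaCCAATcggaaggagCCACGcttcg
CRELD2 (chr22:49918549-49918577, plus strand): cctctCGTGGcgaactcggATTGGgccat
HERPUD1 (chr16:56931956-56931983, plus strand): acgcggcgggTTgCATCAgcccgtgccc
ASNS (chr7:97872459-97872486, minus strand): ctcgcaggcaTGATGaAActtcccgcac

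The core motif of forkhead factors, TGTTTA on both strands, was in 0 of the 9 promoters found for the 13 genes past 1, in 2 of 37 (5.41%) of the higher and 2 of 59 (3.39%) of the lower genes past 0.58, in 6.58% of the promoters of all genes measured and in 12.4% of all promoters. The 4 genes with a match were IL22RA1, LTB, DHH and DEPP1 (C10orf10 on the array). IL22RA1, given above as higher, and DEPP1, a regulator of autophagy with log2 ratios of -0.80 and -1.27, carried it in the windows below, with the motif as read on the opposite strand in capitals.
IL22RA1 (chr1:24143326-24143353, minus strand): accggaccagaTAAACAagccagcctgt
DEPP1 (chr10:44978972-44978999, minus strand): gccctgcagcgTAAACAttccccagcct
A match is a description of the letters, and no match says only that these letters are not in the window.

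Genes of glycolysis and of the hypoxia response also lay mostly below mock. Of 38 genes 34 were measured, and 26 (76.5%) lay below 0 and 2 (5.88%) above 0 on both arrays, against 31.2% and 32% of all genes. The list median was -0.24 with si-FOXQ1-1 and -0.53 with si-FOXQ1-2. In limma, 15 of the 34 had an unadjusted p below 0.05, all on the lower side, against 6.39% of all genes on that side. None passed the limma adjusted p of 0.05. ANGPTL4, a secreted inhibitor of lipoprotein lipase that hypoxia induces, had mock signals of 23218 and 22549, siRNA signals of 12886 and 7215, and log2 ratios of -0.85 ± 0.22 and -1.64 ± 0.25. The members past 0.58 on both arrays were ANGPTL4, the enolase ENO2 (-0.64 and -1.01), the mTOR inhibitor DDIT4 (-0.78 and -0.74), the aldolase ALDOA (-0.63 and -0.67) and the collagen prolyl hydroxylase P4HA1 (-0.67 and -0.59). All 5 were lower, against 0.511% lower and 0.479% higher of all genes measured. LDHA, lactate dehydrogenase A, was -0.42 and -0.64, and PGK1, phosphoglycerate kinase, was -0.31 and -0.56.

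GAPDH, a glycolytic enzyme that is often used as a reference gene, was -0.74 ± 0.22 and -0.53 ± 0.21, while the 15 housekeeping genes, GAPDH and PGK1 among them, had medians of 0.05 and 0.02. Under si-FOXQ1-2 alone, HK2, the hexokinase of many tumours, stood at -0.91 and the glucose transporter SLC2A1 at -0.69, against -0.16 and 0.49 under si-FOXQ1-1. HIF1A, the oxygen-regulated factor of the pathway, was 0.38 and 0.09 and was 1 of the 2 members above 0 on both arrays. On the other 6 arrays the list median ranged from -0.14 to 0.36. Less the mean of those arrays it was -0.33. The hypoxia element core ACGTG, a short motif, was in 14 of 30 promoters found for the list (46.7%), in 17 of 50 for the cell cycle list (34.0%), in 27.2% of the promoters of genes measured and in 21.6% of all promoters. The list was drawn up from known genes here too, so its share does not depend on the ratios. MIR210HG, the host transcript of the hypoxia-induced miR-210, was -0.69 and -1.42, picked after its values were seen.

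**Figure D3:**
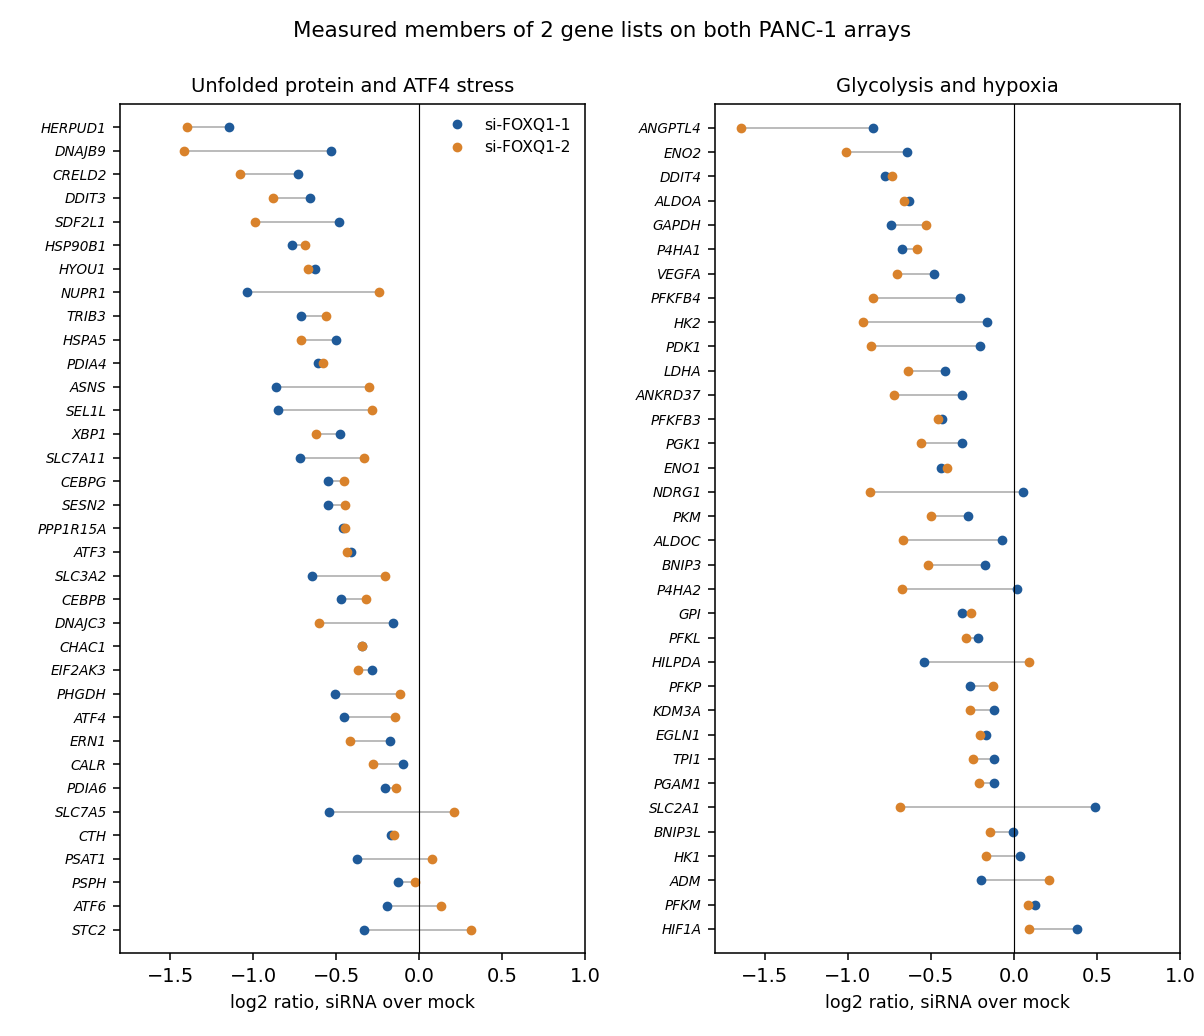
Log2 ratios of siRNA over mock (x axes) for the 35 measured members of the unfolded protein and ATF4 list and the 34 of the glycolysis and hypoxia list, with si-FOXQ1-1 in blue, si-FOXQ1-2 in orange and a grey line joining both values of a gene. In the first panel 31 genes have both points left of 0, and in the second 26 do.

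Interferon genes were divided. Of 50 genes 35 were measured, 18 (51.4%) lay below 0 and 9 (25.7%) above 0 on both arrays, against 31.2% and 32% of all genes, and the list median was -0.06 and -0.13. Besides OASL and IFIT3, its relative IFIT2 was past 0.58 (-0.70 and -0.98), and IFIT1, of the same family, was -0.53 and -0.60. IFITM2 (-0.62 and -0.41) and IFITM3 (-0.57 and -0.40), which keep viruses from entering cells, were lower as well. MX1, an antiviral GTPase, was 2.00 with si-FOXQ1-1 and 0.15 with si-FOXQ1-2, and OAS3, an oligoadenylate synthetase, was 0.89 and 0.20. None of the list passed the limma adjusted p of 0.05, and the other 6 arrays had list medians between -0.31 and 1.52.

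Cell cycle genes lay slightly above mock. Of 63 genes 62 were measured, and 33 (53.2%) lay above 0 and 7 (11.3%) below 0 on both arrays, against 32% and 31.2% of all genes, with medians of 0.21 and 0.04. E2F8, a repressor of the E2F family, was 1.00 ± 0.24 and 0.59 ± 0.23, with weak mock signals of 86.4 and 94.0. It was the 1 member past 0.58 on both arrays, against 0.479% higher and 0.511% lower of all genes. CDC6, which loads the replicative helicase, was -0.48 ± 0.30 and -0.69 ± 0.29 with a weak mock signal of 55.0 and 59.7. The proliferation marker MKI67 was 0.50 and -0.10. The list medians on the other 6 arrays ran from -1.98 to 0.92, far wider than the PANC-1 pair. The CDK inhibitor CDKN1A was -0.45 and -0.60, with weak mock signals of 117 and 92.9. Among 31 measured CDK inhibitors and p53 targets 11 (35.5%) lay below 0 and 7 (22.6%) above 0 on both arrays, against 31.2% and 32% of all genes.

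The genes of epithelial and mesenchymal state differed in their balance around mock. Of 21 measured epithelial genes 9 (42.9%) lay above 0 and 5 (23.8%) below 0 on both arrays, and of 20 measured mesenchymal genes 2 lay above 0 and 9 (45.0%) below 0, against 32% above and 31.2% below of all genes. None passed the limma adjusted p of 0.05. The epithelial medians were 0.13 and 0.05, the mesenchymal medians -0.17 and -0.30. CDH1, E-cadherin, was 0.03 and -0.33, VIM, vimentin, was 0.07 and -0.34, and the mesenchymal transcription factor ZEB1 was -0.43 and -0.24. The epithelial adhesion protein EPCAM had opposite signs, 1.80 ± 0.26 with si-FOXQ1-1 and -0.11 ± 0.21 with si-FOXQ1-2, a gap larger than the scanner error. COL1A1, collagen I (0.09 and -1.18), and TGFBI, a matrix protein induced by TGF-beta (-0.08 and -0.93), were low only on the si-FOXQ1-2 array. MAL2, a protein of apical transport, was 0.54 ± 0.35 and 0.79 ± 0.31, with weak mock signals of 39.0 and 40.5.

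Genes that earlier literature ties to FOXQ1 were read as a further list of 33, of which 21 were measured. On both arrays 14 (66.7%) lay below 0 and 3 (14.3%) above 0, against 31.2% and 32% of all genes, with medians of -0.17 and -0.27. ANGPTL4 was the lowest, followed by CCL2, a monocyte chemokine measured in 10 spots of 1 probe (-1.06 and -0.30), and VEGFA, the vascular growth factor (-0.48 and -0.70). Several of its members, ANGPTL4, VEGFA, HK2, LDHA and SLC2A1 among them, also belong to the glycolysis and hypoxia list.

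In the Wnt pathway 44 of 69 genes were measured, 9 (20.5%) above 0 and 16 (36.4%) below 0 on both arrays, against 32% and 31.2% of all genes, with medians of -0.05 and -0.04. LEF1, a transcription factor of the pathway, was 1.09 and 0.50, with weak mock signals of 94.2 and 87.5. The receptor FZD1 was 0.58 and 0.59, and the ligand WNT6 was -0.40 and -0.83. In the TGF-beta and BMP pathway 14 of 36 measured genes (38.9%) lay below 0 and 8 (22.2%) above 0 on both arrays, with medians of -0.07 and -0.09. The signal carrier SMAD5 was -0.60 and -0.95 and the latent TGF-beta binding protein LTBP2 was -0.76 and -0.93. In the EGF receptor list 6 of 26 measured genes (23.1%) lay above 0, 6 (23.1%) below 0 and 14 on opposite sides. Its ligand AREG was 0.80 and 0.63 and the ERK-induced factor ETV5 was -0.85 and -0.56. In the NF-kappaB and cytokine list 7 of 23 measured genes (30.4%) lay above 0, 6 (26.1%) below 0 and 10 on opposite sides, against 5838 of all 15866 genes on opposite sides. Of the neutrophil chemokines, CXCL1 was 0.57 and 0.90 and CXCL5 was -0.14 and 0.05. CXCL2 was 0.69 ± 0.33 and 0.77 ± 0.30, with a weak mock signal of 43.4 on both arrays. Of 21 measured integrins and laminins 7 (33.3%) lay below 0 and 6 (28.6%) above 0 on both arrays. ITGB3, integrin beta 3, was -0.66 and -0.60, and LAMA3, a laminin chain of epithelial basement membrane, was 0.40 ± 0.42 and 1.10 ± 0.36. In these lists 0 genes passed the limma adjusted p of 0.05.

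**Figure D4:**
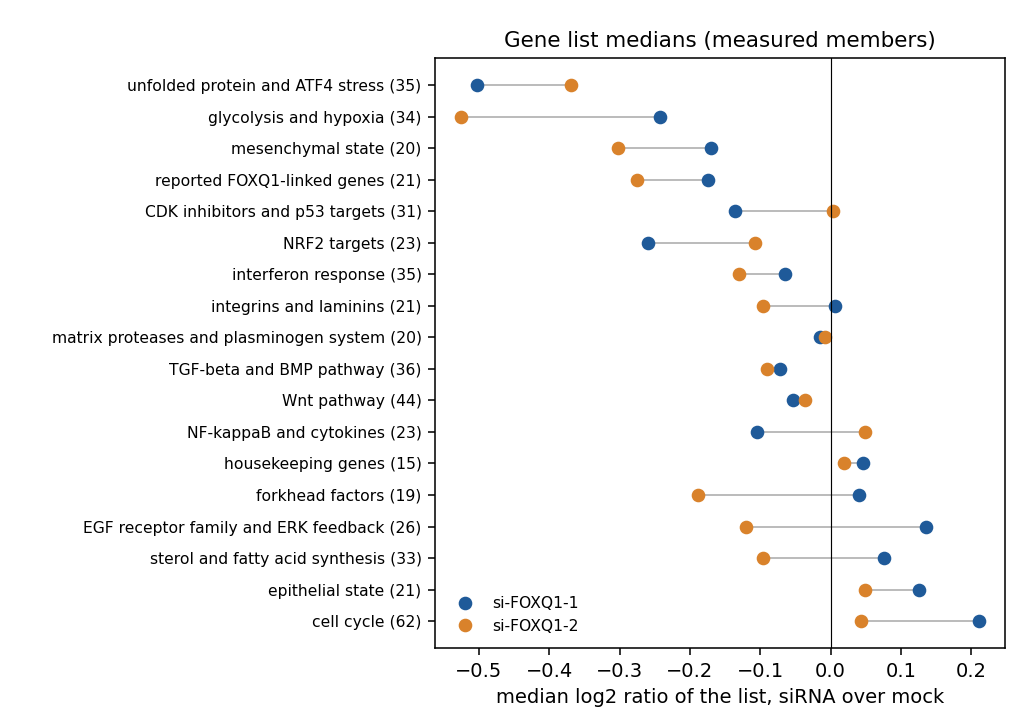
Median log2 ratio of siRNA over mock (x axis) of each gene list with at least 15 measured members, whose number stands in parentheses, with si-FOXQ1-1 in blue and si-FOXQ1-2 in orange. The unfolded protein and ATF4 list (-0.50 and -0.37) and the glycolysis and hypoxia list (-0.24 and -0.53) have the lowest mean of both values, although the NRF2 list (-0.26) lies left of the second under si-FOXQ1-1, and the cell cycle list (0.21 and 0.04) lies right of 0.

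The remaining lists are given mainly by the members that the naming rule picked. Of 33 measured genes of sterol and fatty acid synthesis 13 (39.4%) lay below 0 and 8 (24.2%) above 0 on both arrays, against 31.2% and 32% of all genes. MSMO1, a methylsterol monooxygenase, was 0.86 and 0.20. The metallothionein MT1F, which binds zinc and copper, was 1.98 with si-FOXQ1-1 and 0.55 with si-FOXQ1-2, and MT1M was 0.59 and 0.21. Of 9 measured metallothioneins 6 had opposite signs on the arrays, against 5838 of all 15866 genes measured, and the list median was 0.37 and -0.11. Of 23 measured NRF2 targets, genes of the antioxidant response, 11 (47.8%) lay below 0 and 1 (4.35%) above 0 on both arrays, against 31.2% and 32% of all genes, with medians of -0.26 and -0.11. PIR, one of them, was -0.34 and -0.33. The kinase PLK3, a p53 target, was -0.42 and -0.69. Of 20 measured genes of matrix proteases and the plasminogen system 5 lay below 0 and 4 above 0, and the metalloprotease ADAM19 was 0.62 and 0.19 and PLAUR, the urokinase receptor, 0.05 and -0.94. Markers of cell types were MUC1 of the duct (-0.65 and -0.20), THY1 of fibroblasts (-0.08 and -0.68), CD14 of monocytes (0.11 and -0.31), and SFN (0.49 and 0.06) and S100A2 (-0.05 and -0.30) of squamous cells. Weak spots among them were CEL of acinar cells (0.08 ± 0.29 and 0.42 ± 0.26, scanner error) and the beta-cell markers IAPP and MAFA. IAPP was 0.48 ± 0.35 and 0.41 ± 0.37, with mock signals of 34.3 and 29.2. MAFA was 0.32 ± 0.23 and 0.45 ± 0.22, with mock signals of 134 and 122.

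Some genes were above background in 1 colour only and have a bound in place of a ratio. A bound sets the mean of the brighter channel on the 2 arrays against the lowest signal called well above background in the dim channel, or the dim probe's own signal where that is higher, after scaling between arrays. In all, 1635 genes were well above background in the mock channel of both arrays and in the siRNA channel of neither. Of these, 492 had a bound over 1-fold, 22 reached at least 1.5-fold lower and 0 reached 2-fold. The largest were the non-coding transcripts lnc-LRIG2-3 (at least 1.86-fold lower) and HOXC-AS2 (at least 1.84-fold lower), and ERO1B, an ER oxidase that forms disulfide bonds (at least 1.73-fold lower, ERO1LB on the array). In the other direction 1 gene, lnc-WDR65-1, had a bound of at least 2.75-fold higher. These genes were not tested.

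**Figure D5:**
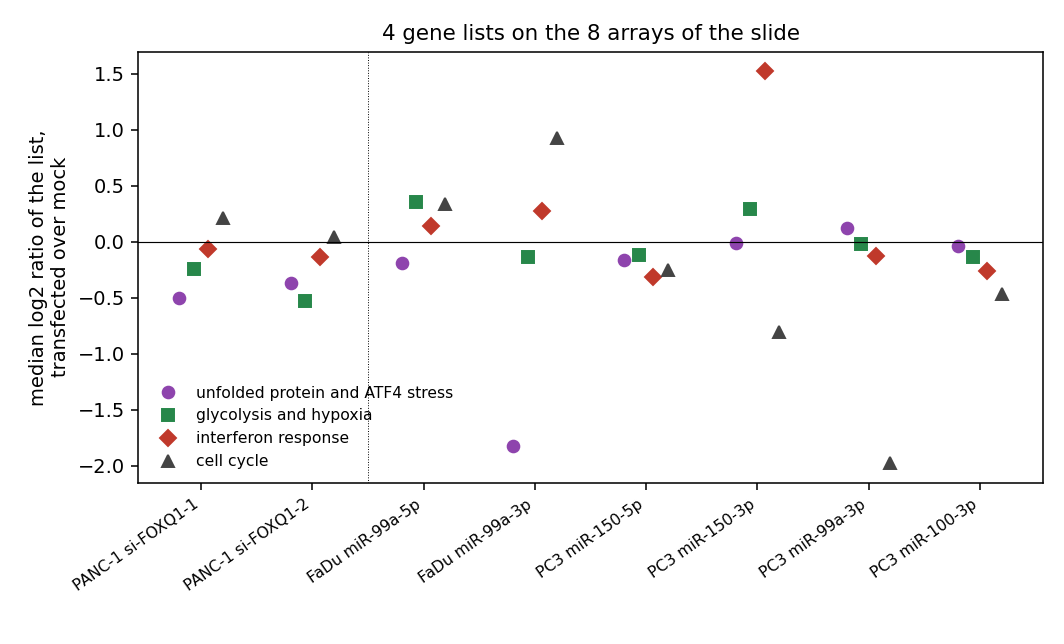
Median log2 ratio of transfected over mock cells (y axis) of 4 gene lists on each of the 8 arrays of the slide (x axis), with the 2 PANC-1 arrays left of the dotted line. The glycolysis and hypoxia list (green squares) is lower on both PANC-1 arrays than on the other 6, and the unfolded protein and ATF4 list (purple circles) is lowest in FaDu cells with miR-99a-3p (-1.82), followed by the PANC-1 pair.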

How the data were processed

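The authors used Agilent Feature Extraction 10.7.3.1, which subtracted background and balanced both dyes of an array (linear, then lowess). The intensities deposited by the authors and the log10 ratios (Cy5 over Cy3) with their errors come from that software, and the series values repeat the ratios. The methods describe no further step for the PANC-1 arrays.

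Log10 ratios were turned into log2 ratios (factor 3.32193). Control spots and spots flagged as outliers in either channel (94 and 178) were left out, repeated spots were averaged, and the probe with the highest mean signal over all channels stood for its gene. Genes had to be well above background in both channels of both arrays. The 2 ratios were tested against 0 with limma 3.58.1 (R 4.3.3; lmFit, eBayes, Benjamini-Hochberg over 15866 genes), with 1 residual and 3.29 prior degrees of freedom, and the step was tested on simulated data. Set tests were not run. Intensities were scaled between the 2 arrays (Aquantile) for the bounds and for the comparison of channels.

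The genes named are FOXQ1, the protein-coding genes past 1 with the same sign on both arrays (up to 12 per direction, filled by sign and size alone since none passed the adjusted p), for each of 25 lists the members past 1 (at most 4 per direction) or else the 2 largest, and the 3 largest bounds per direction. The values of 1 gene that this rule names are not reported here. Other genes are named as list members with a known role or, where said, after their values were seen. The members and lists were chosen with earlier results of these data known. Probe names and hg19 positions are those of the array, and 12959 measured genes had an entry in RefSeq's GRCh38.p14 table, the source of gene types. Promoter windows are RefSeq's too. Alternatives were normexp (offset 50) with loess, the series values, other filters and probes, outlier spots kept, other controls, thresholds and variance models, each array alone, and, chosen after seeing the data, the control without 1 FaDu array and the 3 motifs beside TGTTTA. Python 3.11.15, pandas 2.3.3, numpy 2.4.6 and matplotlib 3.10.9 were used.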

Additional observations from a re-analysis of the deposited data

How the results depend on the processing

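The log2 ratio of FOXQ1 kept its sign under each alternative run and passed the adjusted p with normexp and loess (-2.16, adjusted p = 0.00385) and with the intensity trend (-2.14, adjusted p = 0.0092), which gave 1 lower gene each. The count of genes past 1 on both arrays was 5 higher and 8 lower. It was 0 and 2 with normexp and loess, where 2 of the 13 genes were kept, 128 and 185 with no filter on dim probes, 32 and 29 less the mean of the 6 other arrays (6 kept), 71 and 29 less the mean of 5 of them without FaDu miR-99a-3p (7 kept), 76 and 81 at a threshold of 0.58, and 1 and 1 at a threshold of 2. With background exceeded in at least 1 channel of each array, counts were 7 higher and 78 lower, under the unlike limits of the 2 dyes. With each array alone, counts were 29 to 98 higher and 60 to 62 lower. The cell cycle median was 0.49 less the 6 arrays and 0.76 less the 5, with 54 and 58 members above 0, and with each array alone it was 0.04 to 0.21 with 37 to 51 members above 0. The interferon median was -0.0059 with no filter, -0.21 and -0.28 less the 6 and 5 arrays, and -0.13 to -0.064 with each array alone. The unfolded protein and ATF4 median was -0.069 less the 6 arrays, with 16 members below 0, and -0.37 less the 5. The bound for the higher gene was lost with the stricter limit (0 genes). Signs were reversed less the 6 arrays for ADAM19 (-0.12), PIR (0.053) and S100A2 (0.088), and less the 5 for CD14 (0.026), CDC6 (0.031), S100A2 (0.14) and WNT6 (0.072). The mean of the other arrays was taken with no background filter on them. WNT6 was above background in both channels on 0 of the 6 and CDC6 on 4. CX3CL1 and GCGR, both among the genes kept, were so on 0. With each array alone, ratios changed sign for CD14 (-0.31 to 0.11), COL1A1 (-1.18 to 0.094), EPCAM (-0.11 to 1.80) and PLAUR (-0.94 to 0.048). Values less the mean of other arrays take in the ratios of those arrays with their sign turned. The cell cycle medians there ran from -1.98 (PC3 with miR-99a-3p) to 0.92 (FaDu with miR-99a-3p). The same mean was taken from both PANC-1 arrays. Counts of equal sign under it cannot be set against the shares of all genes given above. The cause of the remaining shifts was not tested. For the 51 named genes other than FOXQ1, the other 652 values kept their sign. Each ratio sets siRNA-transfected against mock cells on the same array, so this pairing is part of the test. No pairing beyond it was possible because each siRNA has 1 array and no second PANC-1 group shares its number.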
